A study of Mus musculus with 29 samples.

Results

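Cebpa and Cebpb encode C/EBPα and C/EBPβ, basic leucine zipper transcription factors of the myeloid lineage, and the chromatin of both loci was followed through LPS stimulation and flavopiridol treatment of a macrophage-like cell line. Every peak of every list and every chromatin state segment that overlapped chr7:35890000-35960000 (Cebpa, 70 kb, with the gene near 35904000-35907000) or chr2:167490000-167600000 (Cebpb, 110 kb, with the gene near 167514000-167516000) was taken, in mm9 coordinates. These windows held 325 of the 1199111 peaks of the series, 153 at Cebpa and 172 at Cebpb, and 653 of the 2070063 state segments, 236 at Cebpa and 417 at Cebpb. Positions below are given in kb from the low coordinate of each gene span, here called the gene start, and positive values lie in the direction of transcription.

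The cells were RAW264.7, a mouse line of macrophage type transformed by Abelson virus, and all groups share this single line. Chromatin immunoprecipitation was followed by sequencing. Peak lists were used for 26 of the 29 samples, and the other 3 are inputs. H3K4me3, H3K27ac, H3K4me1, H3K36me2, H3K79me2, H3K36me3 and H3K27me3 were each mapped without treatment, at 1 h and at 4 h of LPS (100 ng/ml), a bacterial lipopolysaccharide that macrophages sense by a Toll-like receptor. For H3K4me1 and H3K36me2 there are 2 more libraries each, from cells given flavopiridol for 1 h, which inhibits the elongation kinase CDK9, with or without LPS for 4 h thereafter. PU.1, the ETS-family master regulator of macrophages, has 1 library, from untreated cells. Each mark and condition has 1 library, so no spread between cultures can be measured and no p-value is given, and every difference below is between single libraries. Read totals are not in the peak lists, so depth is unknown. The series holds no expression values here, so the identity of the cells and the RNA level of either gene were not checked.

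C/EBPα drives the commitment of progenitors to the granulocyte and monocyte lineages, and PU.1 acts with it at myeloid enhancers. C/EBPβ works beside PU.1 in mature macrophages and is known as an inducer of inflammatory and acute-phase genes. Active promoters carry H3K4me3 and H3K27ac, active enhancers H3K4me1 and H3K27ac, transcribed gene bodies H3K79me2 near the start and H3K36me3 further along, and Polycomb-silenced chromatin H3K27me3.

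The promoters of the 2 genes differ in base composition. The 250 bases before each RefSeq start are printed here (GRCm38.p6, forward strand, 5′ to 3′), because the core elements differ. Both nominal mm9 gene starts lie inside a wide H3K4me3 peak in untreated cells and at both LPS times. H3K4me3 was not mapped with flavopiridol. Capitals mark the TATA box TATAAA in Cebpa, and the GC boxes GGGCGG and the TGACG or CGTCA cores of the cAMP response element in Cebpb.
Cebpa, chr7:35119043-35119292: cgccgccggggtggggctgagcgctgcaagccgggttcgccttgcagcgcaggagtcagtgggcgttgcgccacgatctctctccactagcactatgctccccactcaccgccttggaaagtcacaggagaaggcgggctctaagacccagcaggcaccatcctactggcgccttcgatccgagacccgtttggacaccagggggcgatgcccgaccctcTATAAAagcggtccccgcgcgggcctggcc
Cebpb, chr2:167688665-167688914: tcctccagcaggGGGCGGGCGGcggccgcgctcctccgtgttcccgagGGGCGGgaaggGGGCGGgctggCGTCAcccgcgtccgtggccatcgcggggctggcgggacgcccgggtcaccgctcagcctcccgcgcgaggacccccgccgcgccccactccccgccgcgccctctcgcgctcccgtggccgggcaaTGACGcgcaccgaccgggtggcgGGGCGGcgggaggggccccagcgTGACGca
The Cebpa stretch is 66.4% G and C with 22 CpG, and the Cebpb stretch is 81.6% with 41 CpG, beside medians of 52.4% and 6 CpG over the 32851 promoters of the RefSeq table. The single TATAAA of Cebpa begins 30 bases before the start, and 12.4% of all promoters hold that hexamer on either strand. Cebpb holds no TATAAA. It has 5 GC boxes, of which the first pair overlap by 2 bases, and 32.7% of promoters hold at least 1. It also has 3 TGACG or CGTCA cores, a pentamer found in 17.8% of promoters, and Cebpa has none of either kind. On either strand, neither stretch matched the PU.1 sequence GAGGAAGT (2.44% of promoters), the C/EBP palindrome TTGCNNAA (9.56%), the AP-1 sequence TGANTCA (6.75%) or the NF-kB consensus (7.25%). In the same RefSeq table the direct neighbours of both genes are long noncoding RNAs, Gm35611 and Gm35724 beside Cebpa, and Gm14320 and A530013C23Rik beside Cebpb. The family member Cebpg is the third gene before Cebpa.

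PU.1 peaks were dense at both loci in untreated cells. The Cebpa window held 18 distinct PU.1 peaks, or 2.57 per 10 kb, and the Cebpb window 20 peaks with 23 summits, or 1.82 per 10 kb, beside 0.377 per 10 kb over chromosomes 1 to 19 and X. Of all windows of 70 kb 0.414% held as many peaks as Cebpa, and of all windows of 110 kb 1.93% held as many as Cebpb. The individual peaks were not stronger than usual: the fold enrichment over background that the authors deposited ran from 2.70 to 24.1 with a median of 5.03 at Cebpa, and from 2.94 to 39.3 with a median of 5.98 at Cebpb, beside a median of 6.17 over the whole list. Peaks of at least 10-fold made up 6 of 18 at Cebpa and 9 of 23 at Cebpb, beside 29.6% of the list.

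**Figure D1:**
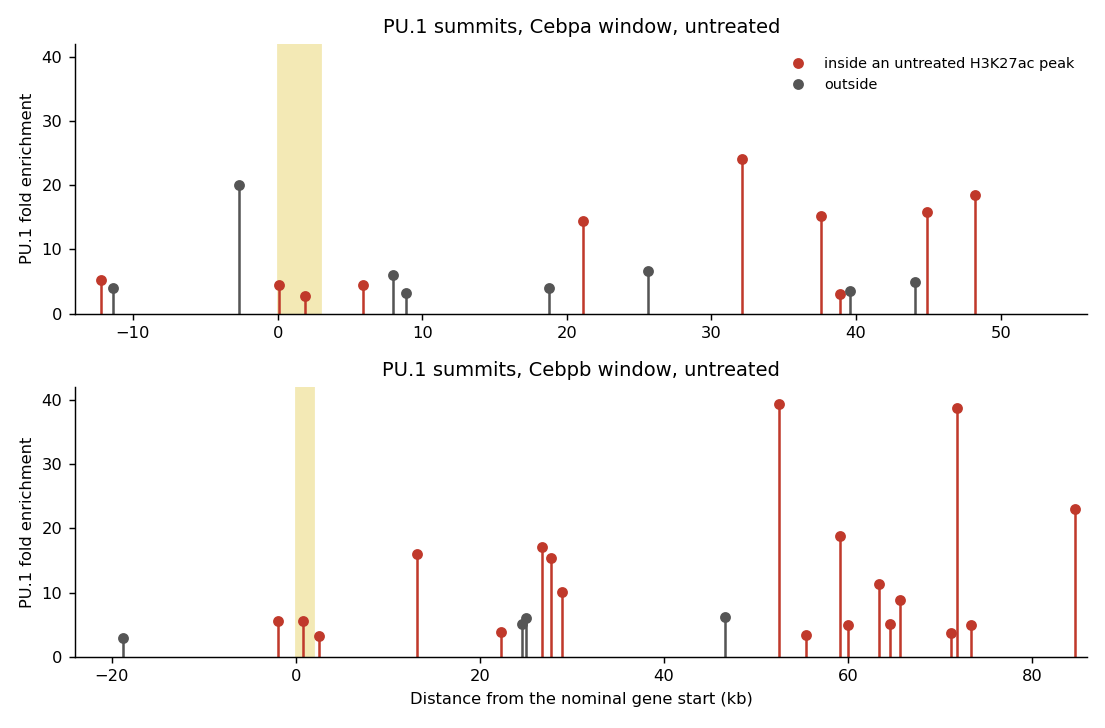
PU.1 summits in untreated cells by distance from the gene start (kb) and deposited fold enrichment, for the Cebpa window (top) and the Cebpb window (bottom), with the gene span shaded. Red summits lie inside an untreated H3K27ac peak and grey ones outside. The highest summits lie well downstream of both genes, at +32.1 kb for Cebpa (24.1) and at +52.5 kb for Cebpb (39.3). Both windows reach much further downstream than upstream.

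At Cebpa, the strongest PU.1 summit lay at +32.1 kb (24.1-fold), followed by -2.7 kb (20.1), +48.2 kb (18.4), +44.9 kb (15.8) and +37.6 kb (15.1). Thus 4 of these 5 lay more than 30 kb downstream, and 1 just upstream of the promoter. The gene itself held only weak summits, at +0.1 kb (4.44) and +1.9 kb (2.70). At Cebpb, the strongest summit was at +52.5 kb (39.3), which ranks 1315 among the 107962 summits of the list, and a summit of nearly the same height lay at +71.8 kb (38.7). The next were at +84.6 kb (23.0), +59.1 kb (18.8) and +26.7 kb (17.0), and the gene held 1 weak summit at +0.8 kb (5.57). All 5 leading summits of Cebpb lay downstream of the gene. Most of each window lies downstream of its gene, and summits beyond the near upstream edge were not counted. The placement is thus set in large part by the windows.

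The PU.1 summits sat mostly in H3K4me1, and the loci differed in how many also sat in H3K27ac. In untreated cells 16 of 18 Cebpa summits and 20 of 23 Cebpb summits lay in an H3K4me1 peak, beside 67.0% of all summits. H3K27ac covered 10 of 18 at Cebpa and 19 of 23 at Cebpb, beside 45.7% of all. Of the 6 strong summits at Cebpa, 5 lay in H3K27ac, and the exception was the one at -2.7 kb, at 20.1-fold. All 9 strong summits at Cebpb lay in H3K27ac. H3K27me3 covered none of the 18 Cebpa summits and 1 of the 23 Cebpb summits, in untreated cells and at both LPS times alike.

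**Figure D2:**
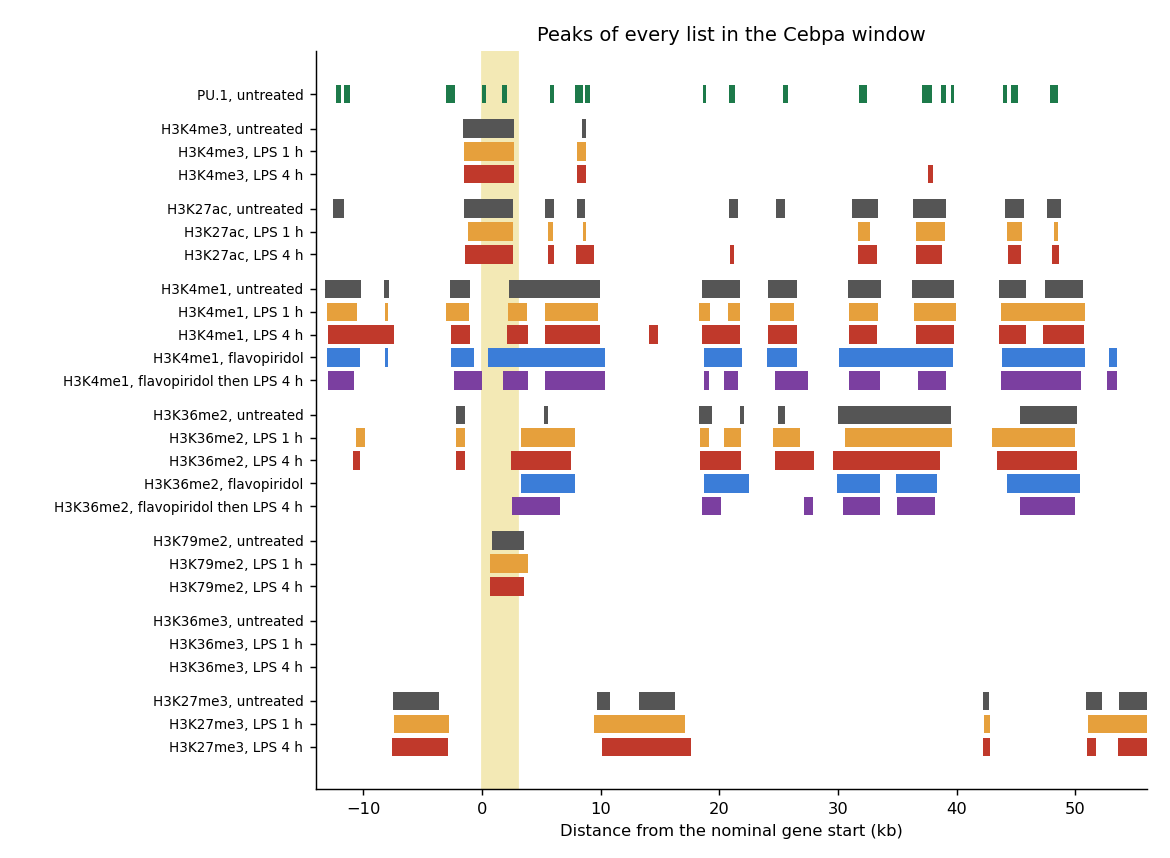
Peaks of each list in the Cebpa window by distance from the gene start (kb), 1 row per mark and condition, coloured by condition, with the gene span shaded and PU.1 in green. H3K4me3 stays over the gene, H3K27ac is split into narrow pieces up to +48.8 kb, and the H3K36me3 rows are empty.

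Both promoters carried wide H3K4me3 and H3K27ac peaks, and of these the H3K27ac peak over Cebpb was longer at 4 h. At Cebpa the H3K4me3 peak over the gene was 4340 bp wide in untreated cells (35902373-35906712), 4197 bp at 1 h and 4167 bp at 4 h. At Cebpb it was 4990 bp (167513821-167518810), 4929 bp and 5194 bp. In untreated cells 4.87% of H3K4me3 peaks were as wide as that of Cebpa and 3.06% as wide as that of Cebpb. H3K27ac over Cebpa matched the H3K4me3 peak, at 4129, 3853 and 3988 bp. Over Cebpb it was wider, at 8242 and 8905 bp, and at 4 h it formed a single peak of 14268 bp that ran to +11.3 kb. A separate H3K27ac peak already lay at +8.9 to +14.2 kb in untreated cells and at +7.9 to +10.6 kb at 1 h. Part of the 4 h width thus joins peaks that were listed apart before. Within 10 kb of the gene H3K27ac covered 11.4 kb in untreated cells, 11.6 kb at 1 h and 14.3 kb at 4 h. The H3K27ac peaks thus stopped near the end of the Cebpa gene but went past that of Cebpb.

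H3K4me1 flanked both promoters and left the H3K4me3 peak largely bare. Of the untreated H3K4me3 peak, H3K4me1 covered 24.0% at Cebpa and 11.6% at Cebpb in untreated cells, 23.5% and 14.8% at 1 h, and 27.0% and 9.04% at 4 h. Over the 7579 untreated H3K4me3 peaks of at least 2 kb the medians were 43.7%, 37.2% and 38.5%, above both genes at each time.

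The marks of elongation separated the genes. Cebpb carried both H3K79me2, the mark laid down by DOT1L behind early elongating polymerase, and H3K36me3, laid down by SETD2 along the transcribed body. Its H3K79me2 peak was 4245 bp in untreated cells (+1.7 to +5.9 kb), 4094 bp at 1 h and 6129 bp at 4 h, when it reached +7.6 kb. H3K36me3 covered 4.90 kb in 2 peaks in untreated cells and 6.27 and 6.09 kb in a single peak at 1 h and 4 h. Both marks lay mainly past the nominal end of the short gene, and A530013C23Rik is the next gene in that direction. Cebpa carried an H3K79me2 peak of 2619, 3228 and 2805 bp and no H3K36me3 peak in its window in any of the 3 conditions. Both genes have a single short coding exon, and with peak lists alone an H3K36me3 signal under the caller's threshold cannot be seen.

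**Figure D3:**
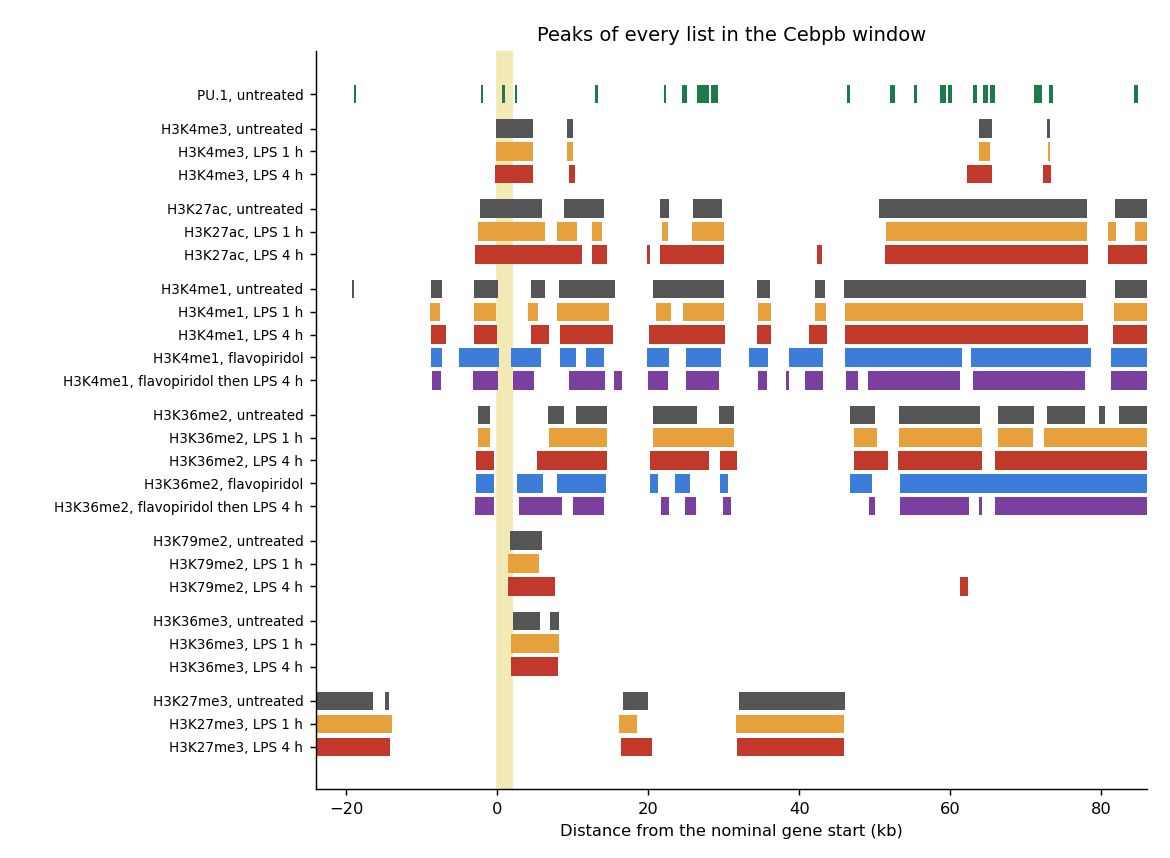
Peaks of each list in the Cebpb window by distance from the gene start (kb), drawn as for Cebpa. Long H3K27ac and H3K4me1 peaks fill +50.5 to +78.2 kb, and H3K27me3 lies in blocks between the acetylated regions, the widest ending at +46.0 kb.

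Away from the promoters, Cebpb had the longer acetylated domain. H3K27ac covered 16.0 kb of the Cebpa window and 50.7 kb of the Cebpb window in untreated cells. Of all windows of the same size, 3.41% had as much as Cebpa and 0.288% as much as Cebpb (69 of 23980). Joined over the 3 conditions, H3K27ac formed 10 regions at Cebpa, the widest being the promoter, and 6 at Cebpb. The widest at Cebpb spanned 27704 bp (chr2:167564528-167592231, +50.5 to +78.2 kb) and held 10 PU.1 summits, including the strongest of the window. Its untreated H3K27ac peak of 27561 bp ranks 64 by width among 31472, and the H3K4me1 peak over it, of 32097 bp, ranks 145 among 65547. Region 3 of Cebpb (+21.5 to +30.1 kb) held 6 PU.1 summits, and the region over the gene (-2.9 to +14.5 kb) held 4. At Cebpa the PU.1 summits were spread over 9 of the 10 regions, 1 or 2 in each.

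Small H3K4me3 peaks also lay at some distal sites. At Cebpa, a peak of 332 bp at +8.4 to +8.8 kb was 810 bp wide at 1 h and 874 bp at 4 h. A second peak, of 428 bp at +37.8 kb (35941585-35942012), was listed only at 4 h and lay over the PU.1 summit at +37.6 kb. At Cebpb, a peak inside the long acetylated region was 1622 bp in untreated cells, 1524 bp at 1 h and 3230 bp at 4 h (+62.2 to +65.5 kb), and another near +73 kb was 386, 291 and 974 bp. A new H3K79me2 peak of 1036 bp appeared beside the former at 4 h (+61.8 kb). Its deposited −log10 q was 0.852, so it is among the weak calls.

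H3K27me3 lay between the active regions. In untreated cells it covered 12.0 kb at Cebpa and 25.4 kb at Cebpb and touched neither gene. At Cebpb the widest block, 14006 bp (167545997-167560002), filled +32.0 to +46.0 kb and ended before the long acetylated region. At Cebpa the widest block ran past the far edge of the window (4158 bp, +53.7 to +57.9 kb, −log10 q 0.987), and others lay on each side of the gene. The widest block wholly inside the window was 3848 bp, at -7.5 to -3.6 kb. The untreated blocks at Cebpa were weak calls, with a −log10 q of at most 3.18, against at least 10.9 at Cebpb.

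The first question the time course allows is what LPS changed at 1 h. A mark was counted as changed where the longer of the 2 covered lengths exceeded the shorter by at least 25%, and each count is set beside the share of windows of the same size that passed the same threshold in the same direction. At Cebpa 3 of the 6 marks with enough length passed. H3K27ac covered 16.0 kb in untreated cells and 9.53 kb at 1 h, 1.68 times less, a threshold that 37.2% of windows of this size passed. H3K36me2 went the other way, from 17.6 to 26.6 kb, 1.52 times more (35.1% of windows), and H3K27me3 covered 17.7 kb after 12.0 kb, 1.47 times more (19.5%). Over the genome the corresponding ratios were 0.874, 1.14 and 1.05. H3K4me3, H3K4me1 and H3K79me2 stayed within the threshold, and H3K36me3 had no peak. Among peaks whose −log10 q reached 5 the H3K36me2 difference at 1 h was 1.53 kb, in place of 9.05 kb, with no untreated peak of that strength.

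At Cebpb 1 of 7 marks passed at 1 h, H3K36me3, at 6.27 kb after 4.90 kb, 1.28 times more, as did 5.18% of windows of this size. The 1 h peak (167515926-167522199) had nearly the same outer limits as the untreated pair (167516061-167519699 and 167520970-167522227). Most of the H3K36me3 difference is thus the gap between that pair. H3K27ac covered 47.1 kb after 50.7 kb and H3K4me1 58.7 kb after 63.4 kb. H3K36me2 was at 52.6 kb after 44.3 kb, 1.19 times more, near the genome's ratio of 1.14. Among peaks whose −log10 q reached 5 the Cebpb differences were 0.701 kb in place of -3.54 kb for H3K27ac, -2.81 kb in place of -4.68 kb for H3K4me1 and 26.8 kb in place of 8.31 kb for H3K36me2, and 2 marks passed in place of 1.

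**Figure D4:**
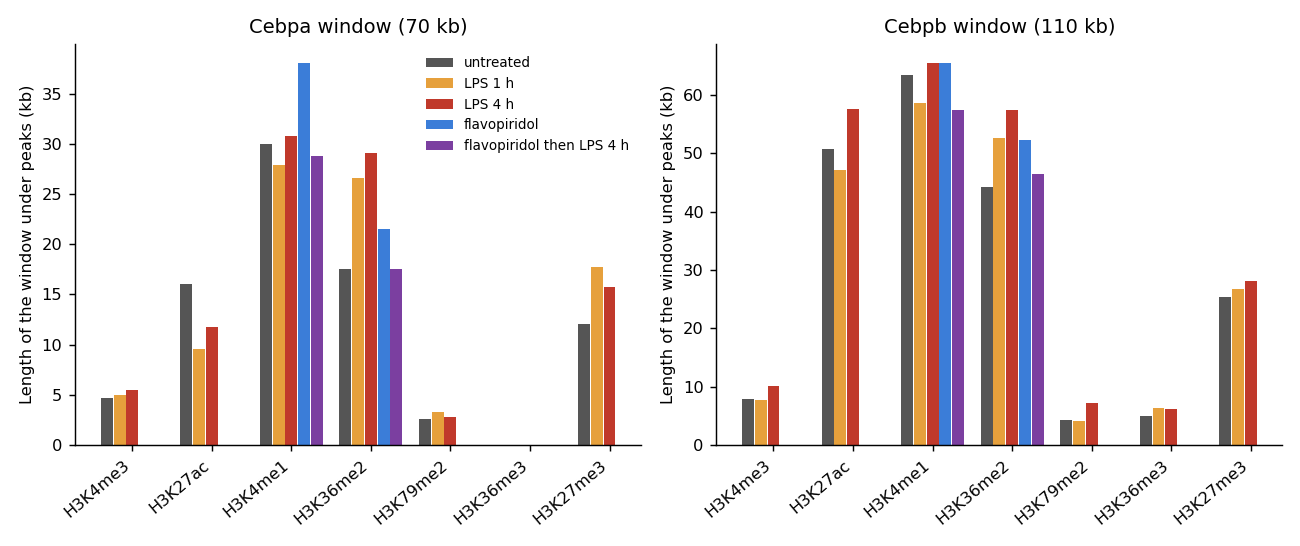
Length of the Cebpa window (left) and the Cebpb window (right) under peaks of each histone mark, in kb, with 1 bar per library, coloured by condition. At Cebpa H3K27ac is lower after LPS (16.0, 9.53 and 11.8 kb) and H3K36me2 higher (17.6, 26.6 and 29.0 kb). At Cebpb the bars of H3K4me3 and H3K79me2 are highest at 4 h.

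At 4 h Cebpa again had 3 of 6 marks past the threshold and in the same directions. H3K27ac covered 11.8 kb, 1.36 times less than untreated (21.4% of windows), while over the genome it covered 1.09 times more. This shortfall lay in the distal regions: within 10 kb of the gene the difference was 0.239 kb in the other direction. H3K36me2 reached 29.0 kb, 1.65 times more (52.8% of windows), and H3K27me3 15.8 kb, 1.31 times more (40.4%), so both of these were common changes at that time. Peaks whose −log10 q reached 5 gave an H3K27ac difference of -2.67 kb in place of -4.26 kb. For H3K27me3 no peak in the window reached that minimum in either condition, so its difference of 0 kb compares no lengths.

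At 4 h Cebpb had 3 of 7 marks past the threshold, all higher. H3K4me3 covered 10.2 kb after 7.81 kb (1.30 times, 12.5% of windows), H3K79me2 7.17 kb after 4.25 kb (1.69 times, 20.3%) and H3K36me2 57.4 kb after 44.3 kb (1.30 times, 53.4%, with a difference of 29.4 kb in place of 13.1 kb among peaks of −log10 q 5 or more). The H3K4me3 excess came mainly from the peak at +62.2 kb and not from the promoter, as the difference within 10 kb of the gene was 0.17 kb of 2.37 kb. The peaks behind the H3K79me2 excess had low −log10 q, of 2.96 for the one over the gene, and with a minimum of 5 the mark had no length left in either condition. H3K27ac covered 57.5 kb, 1.14 times more than untreated and within the threshold. The genome ratio was 1.09, and 30% of windows were higher past the threshold. Of all 23980 windows of this size, 0.217% equalled Cebpb in length at 4 h and 0.288% in untreated cells. Between 1 h and 4 h, none of 6 marks passed the threshold at Cebpa, where by mark 13.1% to 41.7% of windows were higher past it. With a −log10 q of at least 5 instead 5 marks passed there, and with a fold of 1.1 it was 4. At the main setting 2 of 7 passed at Cebpb, both higher: H3K4me3 (1.33 times, 12.7% of windows) and H3K79me2 (1.75 times, 11.1%). The H3K79me2 difference was 3.07 kb, and -4.09 kb among peaks of −log10 q 5 or more, since the 1 h peak had a −log10 q of 74.4 and the 4 h peaks 2.96 and 0.852. For H3K4me1 at Cebpb the same minimum gave -10.1 kb in place of 6.74 kb between 1 h and 4 h, and -13.0 kb in place of 2.06 kb between untreated cells and 4 h.

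Region by region, H3K27ac was shorter at all 10 Cebpa regions at 1 h than in untreated cells, and at 9 of 10 at 4 h. No share of regions over the genome is given beside these counts. The genome's H3K27ac length relative to untreated was 0.874 at 1 h and 1.09 at 4 h. All 4 Cebpb regions present in untreated cells were also shorter at 1 h. The promoter region was covered over 98.8% of its span before LPS, 92.2% at 1 h and 95.4% at 4 h. The region at +31.2 to +33.4 kb, over the strongest PU.1 summit, was covered over 2178 bp in untreated cells, 978 bp at 1 h and 1592 bp at 4 h. That at +47.6 to +48.8 kb went from 1192 to 317 and 622 bp. The exception was the region at +7.9 kb, with 714, 327 and 1433 bp, where the small H3K4me3 peak also lay.

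**Figure D5:**
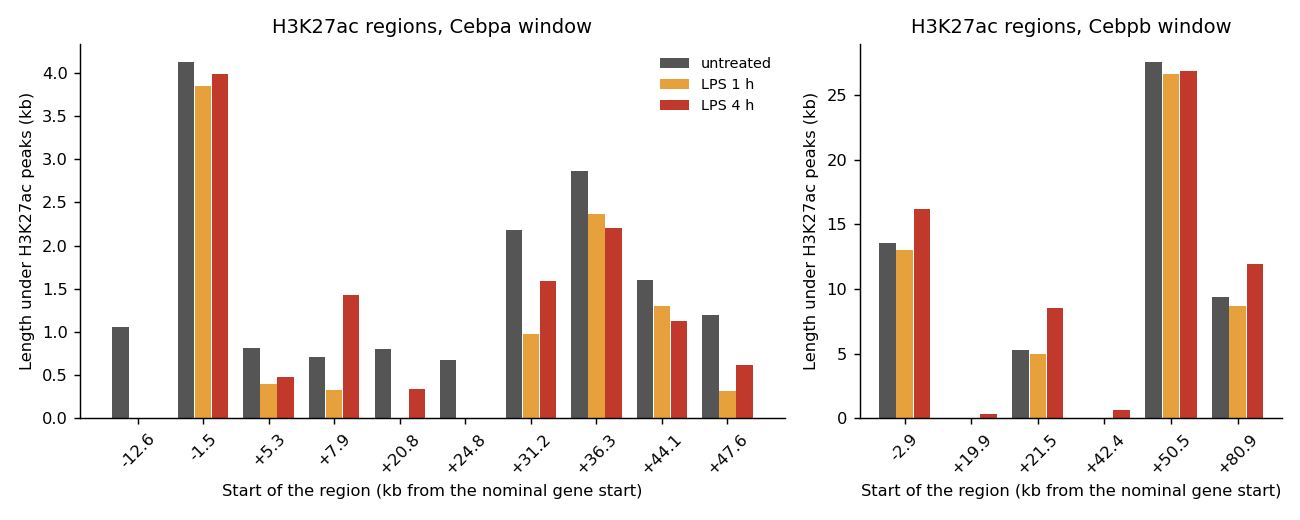
Length under H3K27ac peaks (kb) in each region joined over untreated, LPS 1 h and LPS 4 h, by the start of the region (kb from the gene start), for Cebpa (left) and Cebpb (right), whose vertical scales differ. All 10 Cebpa regions and the 4 Cebpb regions present in untreated cells are shorter at 1 h than in untreated cells. At 4 h 5 of the 6 Cebpb regions are longer than in untreated cells. The last Cebpb region (167594860-167606884) runs past the edge of the window and is drawn whole.

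Of the 10 untreated H3K27ac peaks at Cebpa, 3 had no overlapping peak at 1 h, beside 18.8% of the list. Counting those covered over less than 50% gave 7, and no share of the list is given for that rule. The 3 were at -12.1 kb (35891375-35892431, 1057 bp), +21.2 kb (35924780-35925585, 806 bp) and +25.2 kb (35928820-35929495, 676 bp). At 4 h the first and last were still without a peak, 2 of 10 beside 12.9% of the list, and a peak of 333 bp had returned at +21.1 kb, over a PU.1 summit of 14.4-fold. H3K4me1 covered all of these 3 regions at each LPS time. Of the 18 PU.1 summits, 6 lay in H3K27ac in all 3 conditions, 6 in none, 2 lost it at 1 h and had it again at 4 h, 1 lost it at both times, and the rest followed other patterns.

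At Cebpb no untreated H3K27ac peak was lost at 1 h or 4 h. All 4 regions present in untreated cells were shorter at 1 h, and 3 of them were longer at 4 h than in untreated cells, the long region at +50.5 kb being the exception (27561, 26637 and 26826 bp). The region over the gene was covered over 77.8%, 74.6% and 92.9% of its span, and region 3 over 61.1%, 56.8% and 98.0%. New peaks at 4 h, 2 of 7 beside 21.3% of the list, lay at +20.1 kb (306 bp) and +42.7 kb (625 bp), both within H3K27me3 blocks at 4 h. The latter had a −log10 q of 0.711. Of the 23 PU.1 summits 19 lay in H3K27ac in all 3 conditions and 2 in none.

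H3K36me2, the mark laid down by NSD methyltransferases, covered more PU.1 summits after LPS at both loci and, at Cebpa, more whole acetylated regions. At Cebpa it covered the whole of 3 of the 10 H3K27ac regions before LPS, 7 after 1 h and 6 after 4 h. At Cebpb these counts were 0, 1 and 0 of 6 regions. No share of regions over the genome is given beside these counts. Over the genome H3K36me2 covered 1.14 and 1.24 times its untreated length at 1 h and 4 h. It lay over 5, 10 and 9 of the 18 PU.1 summits at Cebpa and over 11, 14 and 15 of the 23 at Cebpb, while over all summits the shares were 27.0%, 32.5% and 35.1%. Both promoter peaks lay largely outside it: H3K36me2 took up 4.24%, 6.29% and 13.3% of the Cebpa H3K4me3 peak and none of that of Cebpb. New H3K36me2 peaks were few, 1 of 8 at 1 h (646 bp, -10.3 kb) and 1 of 7 at 4 h (594 bp, -10.6 kb) at Cebpa and none at Cebpb, beside 20.4% and 25.2% of the lists.

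Other gains and losses were single peaks. H3K4me1 gained a peak of 633 bp at +14.5 kb of Cebpa at 4 h (1 of 11, beside 15% of the list), and lost one of 351 bp at -19.0 kb of Cebpb at both LPS times (1 of 10, beside 10.7% and 6.55%). H3K4me3 at 4 h gained 1 of 3 at Cebpa, the peak at +37.8 kb, beside 9.64% of the list, and H3K79me2 gained 1 of 2 at Cebpb, beside 19.3%.

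H3K4me1 and H3K36me2 were compared with and without flavopiridol, alone and under LPS. Drug and LPS against drug alone also differ by the 4 h that followed the drug. No drug library without LPS is listed for that time, so LPS and the added time cannot be told apart there. The lists made with the drug were weaker: the highest −log10 q of H3K4me1 was 67.2 untreated and 63.9 at LPS 4 h, but 36.2 with the drug and 18.5 with the drug and LPS, and for H3K36me2 it was 22.3 and 38.6 against 10.6 and 8.55. Its part in the differences with the drug was not tested.

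Counting peaks of any strength, H3K4me1 was as long or longer with the drug alone at both loci while it was shorter over the genome. At Cebpa it covered 29.9 kb in untreated cells and 38.0 kb after flavopiridol, 1.27 times more, as in 11.7% of windows, while the genome ratio was 0.748. At Cebpb it covered 63.4 and 65.5 kb, within the threshold, where 57.7% of windows were lower past it. With the drug, 0.493% of windows equalled Cebpa and 0.0959% equalled Cebpb. This rested on weak peaks. Among those whose −log10 q reached 5, the difference was -15.7 kb at Cebpa and -47.7 kb at Cebpb, and few peaks of the drug list are that strong, 12.8% against 54.4% of the untreated list. Under LPS 4 h, the drug left 28.8 of 30.8 kb at Cebpa and 57.4 of 65.4 kb at Cebpb, both within the threshold, while the genome ratio was 0.585 and 75.3% and 77.5% of windows of the 2 sizes were lower past it. With the same minimum these differences were -22.3 and -43.9 kb, and at Cebpb no peak with drug and LPS reached it. At the PU.1 summits H3K4me1 was as common with the drug, at 16 of 18 and 20 of 23, and with drug and LPS 15 and 20, while over all summits the share was 63.1% and 54.9%.

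With the drug, H3K4me1 peaks covered most of both otherwise bare promoter peaks, a comparison added after the data were seen. The part of the H3K4me3 peak under H3K4me1 was 24.0% in untreated cells and 71.6% with flavopiridol at Cebpa, and 11.6% and 65.7% at Cebpb. With drug and LPS it was 59.3% and 60.3%. Gains of 25 percentage points or more were seen at 31% of the 7579 peaks in each of the drug comparisons, and the median cover with the drug was 96.3%. Both genes were thus among that 31% and below the median cover. At Cebpa the H3K4me1 peak that began at +2.3 kb in untreated cells began at +0.5 kb with the drug and was 9913 bp wide. At Cebpb a peak of 3868 bp began at +1.9 kb with the drug (167515889-167519756) and overlapped an untreated peak of 1905 bp that began further downstream, at +4.5 kb (167518497-167520401).

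H3K36me2 lay inside the Cebpb H3K4me3 peak with the drug and in no other condition. The part of the H3K4me3 peak it covered was 0% before LPS and at both LPS times without the drug, 44.3% with flavopiridol and 38.0% with flavopiridol and LPS. Such a gain of 25 points or more was found at 9.35% of the 7579 peaks for the drug alone and at 1.64% for the drug under LPS. The peak, 3472 bp (167516601-167520072, +4.3 kb at its centre), had no untreated overlap, 1 of 8 beside 28.7% of that list, and a −log10 q of 0.868. It lay past the nominal end of the gene, over the stretch that held H3K79me2 and H3K36me3 without the drug. Neither of those marks was profiled with the drug. At Cebpa the drug left 0% and 5.90%.

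Over whole windows, H3K36me2 with the drug alone was within the threshold of untreated at Cebpa (21.5 and 17.6 kb, where 39.7% of windows were higher past it and 18.7% lower) and Cebpb (52.2 and 44.3 kb, where these shares were 39.6% and 17.5%). Among peaks whose −log10 q reached 5 the Cebpb difference was -25.8 kb in place of 7.92 kb. No H3K36me2 peak with the drug reached that minimum in the window, so this value is the untreated length alone. Of the whole lists, 0.1965% of H3K36me2 peaks with the drug reached it, against 9.02% untreated. Under LPS it was lower with the drug, at 17.5 kb after 29.0 kb at Cebpa (1.66 times less, 67.7% of windows) and at 46.5 kb after 57.4 kb at Cebpb (1.23 times less, within the threshold, where 69.8% of windows were lower past it). With the same minimum the Cebpb difference under LPS was -55.2 kb in place of -10.9 kb, again with no peak of drug and LPS left. Within 10 kb of the gene, counting peaks of any strength, the difference was 1.03 kb. The Cebpa value with drug and LPS was close to the 17.6 kb of untreated cells, and the genome ratio to LPS alone was 0.659. Drug and LPS against drug alone had 1 of 2 marks lower at Cebpa, H3K4me1 (28.8 after 38.0 kb, 46.6% of windows), and none of 2 at Cebpb, where 46.9% and 63.5% of windows were lower past the threshold. With the drug, Cebpa lost 2 of 7 untreated H3K36me2 peaks, at -1.8 and +25.2 kb (beside 18% of the list), and gained an H3K4me1 peak of 702 bp at +53.1 kb (1 of 9, beside 14.2%). Cebpb lost the H3K4me1 peak at -19.0 kb again (1 of 10, beside 20.9%).

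The remaining gains and losses were few and short. From 1 h to 4 h, Cebpa gained the H3K4me3 peak at +37.8 kb (1 of 3, beside 10.4% of the list), the H3K27ac peak at +21.1 kb (1 of 8, beside 23.4%) and the H3K4me1 peak at +14.5 kb (1 of 11, beside 16.4%), and Cebpb gained 2 of 7 H3K27ac peaks and 1 of 2 H3K79me2 peaks (beside 14.7%). Drug and LPS against LPS gained H3K4me1 peaks at +53.1 kb of Cebpa and at +16.0 and +38.4 kb of Cebpb (1 of 11 and 2 of 14, beside 11.4%). It lost 1 of 11 H3K4me1 peaks (beside 33.9%) and 2 of 7 H3K36me2 peaks (beside 33.8%) at Cebpa, at +14.5 kb and at -10.6 and -1.8 kb. Drug and LPS against the drug alone gained the same 2 H3K4me1 peaks at Cebpb (beside 11% of the list) and lost 1 of 9 at Cebpa, at -8.1 kb (beside 21.8%). For H3K36me2 it gained 1 of 6 at Cebpa and 1 of 10 at Cebpb, at +27.5 and +22.2 kb (beside 9.92%), and lost 1 of 8 at Cebpb, at +20.8 kb (beside 29.3%).

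The authors' segmentations describe the same changes as combinations. In the 27-state maps every state number matched its own number best by mark profile at both LPS times, so numbers were compared directly. The gene starts carried state 23 (H3K4me3 99.6% and H3K27ac 99.2% of its length) in all 3 conditions, in pieces alternating with state 22 at Cebpb, followed by state 10, which adds H3K79me2. In the 18-state map, whose condition is not stated in the labels, the same steps were state 14 and state 7.

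State 17 (H3K27ac 98.7%, H3K4me1 99.9%, H3K36me2 46.3% of its untreated length) was shorter after LPS at both loci, going from 6.8 kb to 2.2 and 1.6 kb at Cebpa and from 17.6 kb to 13.0 and 12.0 kb at Cebpb. State 3, the same pair of marks with H3K36me2 at 98.8%, went from 15.4 kb to 17.6 and 22.8 kb at Cebpb and from 1.8 kb to 1.4 and 3.0 kb at Cebpa. The largest single move at Cebpb was from state 17 to state 3, over 4.2 kb at 1 h, equal to the move from state 27 to state 19, and over 5.8 kb at 4 h. At Cebpa state 17 went to state 16, H3K4me1 mostly without H3K27ac, over 3.2 kb at 1 h and 2.6 kb at 4 h. It also went to state 3 there, over 1.6 kb at 4 h, and at Cebpb it went to state 16 over 1.4 kb at 1 h. Over the genome state 17 took up 0.68%, 0.438% and 0.535% and state 3 0.277%, 0.261% and 0.399%, so the shorter state 17 after LPS and the longer state 3 at 4 h were seen over the genome too. The largest move out of state 17 was thus to a state with H3K36me2 at Cebpb and to one with little H3K27ac at Cebpa. Both loci also had the other move, and no share of these moves over the genome is given.

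State 1, which is H3K36me2 with little else, covered 1.8, 2.8 and 6.2 kb at Cebpa and 4.4, 5.8 and 8.4 kb at Cebpb, beside 2.48%, 3.84% and 4.75% of the genome. State 19 (H3K27me3, 95.7% of its length) covered 11.6, 15.0 and 9.4 kb at Cebpa and 20.4, 23.4 and 19.6 kb at Cebpb, beside 10.9%, 13.1% and 9.89% of the genome. Both states thus followed the order of the genome's shares at both loci. At 4 h the length of state 19 was below the untreated value at both loci, whereas the H3K27me3 peaks covered more than in untreated cells. Among steps in a marked state, 56.9% kept their number from untreated to 1 h at Cebpa and 67.3% at Cebpb, beside 67.7% over the genome, and to 4 h 52.5% and 63.8%, beside 63.2%.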

How the data were processed

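RAW264.7 chromatin was profiled in 29 samples with 1 library per mark and condition. Bowtie 1.0.1, MACS2 and mm9 are named in the submitters' processing notes. Call settings, control and depth were not given in the sources used here. Broad peaks for histone marks and narrow peaks with summits for PU.1 were deposited by the authors, each with a fold enrichment ratio, a −log10 p and −log10 q, and a score. Segmentations in 200 bp steps were deposited by the authors without a tool named in the labels.

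Peaks overlapping either window by at least 1 bp were taken. Covered lengths of a window were clipped to it, but peak widths and the lengths of H3K27ac regions were not. Same-size adjoining windows on chromosomes 1 to 19 and X were the background where the mean covered length was at least 2%. Broad-peak folds were not compared between lists. No test was run, as no group has replicates. The window members and the lists were chosen with earlier results of these data known. Text names the 5 strongest PU.1 summits per window, peaks over each gene, the widest untreated peaks, gained or lost peaks and H3K27ac regions. The PU.1, C/EBP, AP-1, NF-kB and TATA sequences were planned, and GC box and TGACG, like the cover of H3K4me3 peaks, were added after the data were seen. Sequences and neighbours come from RefSeq GRCm38.p6, and both genes matched. Coordinates of peaks are 1-based mm9. No mm9 annotation was used, so gene spans are nominal. Alternatives were a −log10 q of at least 5, peaks of at least 1 kb, folds of 1.1 and 1.5, the gene with 10 kb on each side, 50% overlap, each summit line counted and segments of at least 400 bp. Overlap and window counting were checked on simulated data. Python 3.11.15, numpy 2.4.6, pandas 2.3.3 and matplotlib 3.10.9 were used.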

Additional observations from a re-analysis of the deposited data

Results flagged for a closer look

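The difference between LPS 4 h and the library without LPS had opposite signs without and with flavopiridol. This held for both marks at both loci when peaks of any strength were counted over the whole windows. With the drug, the library without LPS is labelled as 1 h of flavopiridol, and the other as 4 h of LPS after that hour. No drug library without LPS is listed for the later time. LPS and the added time therefore cannot be told apart in the differences with the drug. At Cebpa, H3K4me1 covered 0.872 kb more after LPS without the drug, and with the drug the difference was -9.263 kb. For H3K36me2 at Cebpa the differences were 11.472 kb and -4.007 kb. At Cebpb, H3K4me1 differed by 2.062 kb without and -8.097 kb with the drug, and H3K36me2 by 13.109 kb and -5.686 kb. The opposite signs did not hold throughout. Among peaks whose −log10 q reached 5, the differences for Cebpb H3K4me1 were -12.951 kb without and -9.107 kb with the drug. No Cebpb H3K4me1 peak with drug and LPS reached that minimum. For H3K36me2 no peak of either drug list reached it in either window. The H3K36me2 difference with the drug was thus 0 kb at both loci and compares no lengths. Within 10 kb of Cebpb, H3K36me2 differed by 3.863 kb without and 0.214 kb with the drug. The difference between these differences was not tested, since each value rests on 1 library per condition. Over the genome the length with drug and LPS was 0.815 of that with the drug alone for H3K4me1 and 0.755 for H3K36me2, and 46.6% and 61.6% of windows of 70 kb were lower by the threshold used for a changed mark, so the direction with the drug is shared with much of the genome.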

How the results depend on the processing

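No paired analysis was possible because each mark and condition has 1 library. Counts of changed marks are given in the order LPS 1 h and LPS 4 h against untreated, LPS 4 h against 1 h, flavopiridol against untreated, flavopiridol with LPS against LPS, and flavopiridol with LPS against flavopiridol, in which Cebpa had 3, 3, 0, 1, 1 and 1 and Cebpb 1, 3, 2, 0, 0 and 0. Only counts that moved by over 1.5 times are listed. With a −log10 q of at least 5, Cebpa had 1 at LPS 4 h, 5 for 4 h against 1 h and 2 for drug under LPS, and Cebpb had 2 at 1 h, 1 for 4 h against 1 h, 2 for the drug, 2 for the drug under LPS and 1 for LPS under the drug. With a fold of 1.1, Cebpa had 4 for 4 h against 1 h and 2 each for the drug and for LPS under it, and Cebpb had 2 at 1 h, 6 at 4 h, 4 for 4 h against 1 h, 1 for the drug, and 2 each for drug under LPS and LPS under drug. With a fold of 1.5, Cebpa had 1 at 4 h and 0 for the drug and for LPS under it, and Cebpb had 0, 1 and 1 in the time course. With peaks of at least 1 kb, Cebpa had 1 for 4 h against 1 h and 2 each for the drug and for LPS under it, and Cebpb had 1 for the drug under LPS. Within 10 kb of the gene, Cebpa had 2 for 4 h against 1 h, 0 for LPS under the drug and 6 PU.1 peaks in place of 18, and Cebpb had 2 at 1 h, 1 for the drug, 1 for LPS under it and 3 PU.1 peaks in place of 20. Among the 54 differences in length, 39, 51 and 46 kept their direction with a −log10 q of at least 5, peaks of at least 1 kb and the gene with 10 kb. The sign turned in 10, 3 and 5. Of these, 3 were differences past the threshold: Cebpa H3K27ac at 4 h (0.239 kb, near the gene), Cebpa H3K4me1 with the drug (-15.722 kb, −log10 q of at least 5) and Cebpb H3K79me2 at 4 h against 1 h (-4.094 kb, same setting). The rest were within it and include, at that −log10 q, Cebpb H3K36me2 with the drug (-25.777 kb), Cebpb H3K4me1 with the drug (-47.749 kb), at 4 h (-12.951 kb) and at 4 h against 1 h (-10.14 kb), and Cebpb H3K27ac at 1 h (0.701 kb). The cause was not tested, but the drug lists hold few peaks of that strength, 12.8% of H3K4me1 against 54.4% untreated. For H3K36me2 it was 0.1965% against 9.02%, and none of the drug peaks of this mark in the windows. With 50% overlap 27 of 108 gained or lost counts moved, and all 30 state lengths stayed with segments of at least 400 bp. Depth is unknown, so a peak missing from a list may be a weak one.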
